A study of Homo sapiens with 6 samples.

Results

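Small nucleolar RNA (snoRNA) gene loci were examined for DNA-RNA hybrids in human neuroblastoma cells, in a series on TDP-43 knockdown. The members were all RefSeq genes of biotype snoRNA on chromosomes 1 to 22 and X of GRCh38.p14, each taken with 500 bp on either side. That rule gave 1196 windows among 59094 windows of RefSeq genes of every biotype. A locus was counted as covered in a sample when a called peak overlapped its window by 1 bp or more. By symbol, 357 members were box C/D snoRNAs (SNORD), 182 were box H/ACA snoRNAs (SNORA) and 657 had no class. Of the unclassed loci, 655 were predicted models known by a LOC number. The genes were 33 to 250 bp long, with a median of 104 bp, so the median window was 1104 bp. Of the 1196 loci, 891 lay within a protein-coding or lncRNA gene, here called the host, and these had 627 different hosts. Neighbouring windows overlapped in places, and the members formed 1097 separate stretches.

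The peaks came from DRIP-seq, in which the S9.6 antibody pulls down DNA paired with RNA (an R-loop) from restriction-digested nucleic acids before sequencing. All samples were SH-SY5Y, a human neuroblastoma cell line, infected with a lentivirus that expresses a short hairpin RNA and then kept under puromycin. There were 3 samples with the hairpin shT2 and 3 with the hairpin shNC3, so the controls carried a hairpin, the vector and the selection too. The labels do not say which hairpin targets TDP-43, and from the names shT2 is read as the TDP-43 knockdown and shNC3 as the negative control. Differences are given as shT2 relative to shNC3. The labels name no separate infections behind the 3 samples of a hairpin, so the spread behind a p-value here can be technical. The model of covered length used below also draws on the spread of other windows. A hairpin acts on RNA, and peaks over the targeted gene would not check these labels.

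SnoRNAs are short RNAs that pair with ribosomal and spliceosomal RNA and direct its chemical modification. Box C/D snoRNAs guide ribose methylation by fibrillarin, and box H/ACA snoRNAs guide the conversion of uridine to pseudouridine by dyskerin. In human cells most are not transcribed on their own: they are cut out of the introns of host genes, many of which encode ribosomal proteins, translation factors or non-coding small nucleolar RNA host genes (SNHG). Many of these hosts start within a terminal oligopyrimidine (TOP) tract, a C followed by a run of C and T, at which growth signals control translation.

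The starts of 7 host genes are shown because the loci described below lie in or beside the transcripts that begin there. RPL7A, RPL13A and SNHG12 host snoRNAs that were covered in every sample. EIF4A2, TAF1D and SNHG8 host snoRNAs whose windows were covered over a greater length in shT2, and RACK1 hosts 1 whose window was covered over a shorter length. The sequences are from RefSeq (GRCh38.p14), 60 bases before the annotated start and 20 from the start on, 5′ to 3′ on the strand of the gene. Capitals mark the unbroken run of C and T that begins at the annotated start. RPL7A is shown at chr9:133348158-133348237 (plus strand), RPL13A at chr19:49487548-49487627 (plus strand) and SNHG12 at chr1:28581854-28581933 (minus strand). EIF4A2 is shown at chr3:186783517-186783596 (plus strand), TAF1D at chr11:93741476-93741555 (minus strand) and SNHG8 at chr4:118278702-118278781 (plus strand). RACK1 is shown at chr5:181243887-181243966 (minus strand).
RPL7A: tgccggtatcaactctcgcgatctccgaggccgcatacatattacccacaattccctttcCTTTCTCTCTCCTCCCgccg
RPL13A: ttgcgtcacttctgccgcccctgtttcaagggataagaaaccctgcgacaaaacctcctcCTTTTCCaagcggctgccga
SNHG12: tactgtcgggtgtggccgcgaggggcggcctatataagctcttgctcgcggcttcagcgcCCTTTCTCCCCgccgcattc
EIF4A2: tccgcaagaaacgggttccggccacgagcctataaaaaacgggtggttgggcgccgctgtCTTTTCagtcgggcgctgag
TAF1D: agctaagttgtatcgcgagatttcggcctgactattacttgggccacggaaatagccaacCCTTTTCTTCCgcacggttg
SNHG8: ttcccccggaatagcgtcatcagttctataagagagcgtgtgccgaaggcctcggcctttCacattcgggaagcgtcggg
RACK1: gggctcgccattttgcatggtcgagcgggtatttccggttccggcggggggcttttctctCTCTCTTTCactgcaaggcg
The run was 16 bases in RPL7A, 11 in SNHG12 and in TAF1D, 9 in RACK1, 7 in RPL13A and 6 in EIF4A2. SNHG8 starts with a single C, followed by an A. The start of SNHG12 in the promoter table lies 1110 bp inside the end of its gene span, and the spans of the other 6 hosts begin at the start shown.

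The shT2 lists held 49068 to 50971 peaks and the shNC3 lists 42717 to 45390. The background that the peak caller compared with was recovered from the fold and p-value of each peak. Its most frequent value in a list was 2.99 to 3.02 fragments in shT2 and 1.65 to 1.79 in shNC3, a ratio of the means of 1.74. This background, taken here as a measure of depth because the lists hold no read counts, moved with the hairpin. Values at equal depth are given beside the main results. For that setting, peaks that would not pass at the background of the shallowest library were removed, which left 42613 to 43124 peaks in shT2 and 42717 to 44176 in shNC3. Peaks that remained kept their edges, so this setting bears on whether a locus is covered and not on covered length. Of 8 noradrenergic neuroblastoma markers, 7 lay under a peak in all 6 samples, among them PHOX2A and GATA3, and TH lay under none. The summed covered length of these 8 genes was 73757 to 73910 bp in shT2 and 60287 to 61746 bp in shNC3. Of 8 markers of mesenchymal or other cells, VIM was covered in all 6 samples, and COL1A2, PTPRC, PECAM1 and ALB were covered in none. This list summed to 7204 to 7903 bp in shT2 and 24330 to 25649 bp in shNC3. COL1A1 had 13311 to 13742 bp in shNC3 and 0 to 334 bp in shT2. The part of depth or of these marker differences in the results below was not tested, beyond the values at equal depth.

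SnoRNA loci lay under peaks more often in shT2 than in shNC3. Peaks covered 244, 246 and 244 of the 1196 loci in the 3 shT2 samples and 201, 197 and 201 in the 3 shNC3 samples. The share was 20.5% ± 0.097 (SD, n = 3) in shT2 and 16.7% ± 0.19 (SD, n = 3) in shNC3, a difference of 3.76 percentage points. Every shT2 sample was above every shNC3 sample, and a two-sided exact permutation test gave p = 0.1, the smallest value that 3 samples against 3 can give. At equal depth the counts were 240, 236 and 237 against 199, 197 and 198, and the difference was 3.32 points. Windows of all RefSeq genes did not show such a gap: 26.5% ± 0.39 (SD, n = 3) were covered in shT2 and 26.3% ± 0.64 (SD, n = 3) in shNC3 (exact permutation p = 0.7).

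Among other short RNA genes taken with the same window, none had a gap of this size. Of 1911 miRNA loci, 23.1% ± 0.34 (SD, n = 3) were covered in shT2 and 24.0% ± 0.38 (SD, n = 3) in shNC3. The share of 443 tRNA loci was 11.0% against 10.2%, and that of 154 small nuclear RNA loci was 11.3% against 10.2%. Within each sample, the snoRNA share minus the miRNA share was between -2.93 and -2.41 points in shT2 and between -7.47 and -7.13 points in shNC3. The gap between snoRNA and tRNA loci was 9.06 to 9.79 points in shT2 and 5.97 to 6.99 points in shNC3. Both of these within-sample gaps, and that to the snRNA loci, separated the hairpins without overlap (exact permutation p = 0.1 for each, the smallest possible). At equal depth the difference between hairpins was -1.88 points for miRNA loci, 0.0 for tRNA loci and 0.866 for snRNA loci.

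The guides of pseudouridylation showed a wider gap than the guides of ribose methylation. Box H/ACA loci were covered in 87, 85 and 80 of 182 cases in shT2 and in 61, 62 and 63 in shNC3. This is 46.2% ± 2.0 (SD, n = 3) against 34.1% ± 0.55 (SD, n = 3), a difference of 12.1 points, or 11.5 at equal depth. Box C/D loci were covered in 133, 133 and 136 of 357 cases in shT2 and in 117, 115 and 114 in shNC3. Their shares were 37.5% ± 0.49 (SD, n = 3) and 32.3% ± 0.43 (SD, n = 3), a difference of 5.23 points, or 4.39 at equal depth. Outside the imprinted arrays described below, 233 box C/D loci remained, with 56.7% covered in shT2 and 49.5% in shNC3, 7.15 points apart. The H/ACA share minus the C/D share outside the arrays lay between -13.1 and -8.85 points in shT2 and between -16.7 and -14.3 points in shNC3, without overlap (exact permutation p = 0.1). The 655 predicted loci were rarely covered, 4.07% ± 0.35 (SD, n = 3) in shT2 and 3.41% ± 0.32 (SD, n = 3) in shNC3 (exact permutation p = 0.2).

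**Figure D1:**
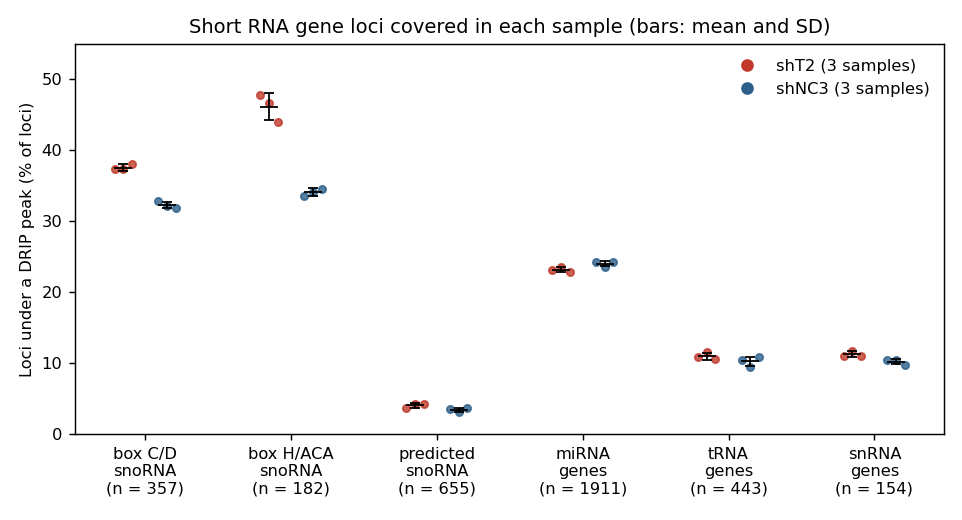
Percent of loci under a DRIP peak (vertical axis) for each class of short RNA gene, with 1 point per sample and bars for the mean and SD of 3 samples, shT2 in red and shNC3 in blue. Box H/ACA loci stand at 46.2% against 34.1% and box C/D loci at 37.5% against 32.3%, while miRNA loci stand at 23.1% against 24.0%.

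Most loci had the same state in all libraries. No peak was found at 912 of the 1196 loci in any sample, and 168 loci, in 124 stretches and 91 hosts, were covered in all 6. Of those 168, 91 had the whole window under peaks in every sample. In total 284 loci, in 225 stretches, were covered in at least 1 sample. The loci shared by a pair of samples made up 0.834 to 0.877 of those covered in either when both had the same hairpin, and 0.725 to 0.757 when the hairpins differed.

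The state that separated the hairpins most sharply was held mainly in 1 direction. Peaks were present in 3 of 3 shT2 samples and 0 of 3 shNC3 samples at 22 loci in 18 stretches. This is 7.75% of the 284 covered loci, against 3.61% of the 19400 gene windows with a peak in any sample. The opposite pattern was found at 1 locus, SNORD160, or 0.352% of the covered loci, against 3.47% of all such windows. MiRNA loci had 3.94% and 5.31% in the same 2 patterns, tRNA loci 8.45% and 4.23%, and other windows of at most 1300 bp 5.17% and 4.31%. Among intermediate states, 21 loci were covered in 3 shT2 and 2 shNC3 samples, 17 in 2 shT2 and 0 shNC3 samples, and 22 in 1 shT2 sample alone.

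Coverage differed between classes of host gene, and many single hosts were mixed: of 82 hosts with 2 or more snoRNAs, 28 had every locus covered in all 6 samples and 19 had none covered. All 59 named snoRNAs within ribosomal protein genes lay under a peak in at least 1 sample, and 52 did in all 6. On average 97.7% ± 0.98 (SD, n = 3) of them were covered in shT2 and 91.5% ± 1.7 (SD, n = 3) in shNC3. RPL13A, RPL23A, RPL3 and RPL7A, which carry 4 box C/D snoRNAs each, had all 4 covered in every sample. The peaks over RPL13A spanned the whole gene window of 5701 bp in each of the 6 samples, and those over RPL7A the whole 4209 bp. SNORD32A, SNORD33, SNORD34 and SNORD35A of RPL13A, box C/D snoRNAs in introns of 1 transcript, each lay wholly under peaks in all 6. RPL4 differed: SNORD16 and SNORD18A were covered in all 6 samples, SNORD18B had 338, 0 and 584 bp in shT2, and SNORD18C had 0, 704 and 595 bp in shT2. Neither SNORD18B nor SNORD18C had a peak in shNC3.

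Hosts classed as translation factors, by the symbols EEF, EIF, PABPC and TPT1, had the widest gap between the hairpins. SNORA31 and SNORA31B of TPT1 were counted in this class by that rule. Of 17 named snoRNAs there, 16 were covered in each shT2 sample, and 8, 6 and 9 in the 3 shNC3 samples. The means were 94.1% in shT2 and 45.1% ± 9.0 (SD, n = 3) in shNC3, 49.0 points apart (exact permutation p = 0.1). The gap came from few hosts: 6 of the 17 loci had peaks in 3 shT2 and 0 shNC3 samples, 4 of them in EIF4A2 and 2 in EEF1B2. EIF4A1, which encodes the paralogous initiation factor, had SNORA48, SNORD10 and SNORA67 wholly covered in all 6 samples. EIF3A had SNORA19 under 437 and 634 bp in shT2 replicates 1 and 2 and under no peak in the other 4 samples.

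Among 56 named snoRNAs of SNHG genes and GAS5, 75.0% were covered in shT2 and 70.2% ± 6.3 (SD, n = 3) in shNC3, a difference within the spread of the shNC3 samples (exact permutation p = 0.4). SNHG12 and SNHG17 had all 4 of their snoRNAs covered in every sample. GAS5, a non-coding transcript with a growth arrest association, had 10 of its 11 snoRNAs covered in every sample other than shNC3 replicate 3, which had 7. In SNHG1 all 9 snoRNA loci were covered in shT2, and 8, 9 and 7 in shNC3. Other coding hosts held 222 named loci, of which 36.8% ± 0.69 (SD, n = 3) were covered in shT2 and 28.4% ± 1.2 (SD, n = 3) in shNC3. NOP56, whose protein is itself a core part of box C/D particles, had all 5 of its snoRNAs covered in every sample. Other lncRNA hosts held 21 named loci, with 44.4% ± 5.5 (SD, n = 3) covered in shT2 and 27.0% ± 2.7 (SD, n = 3) in shNC3. ZFAS1 had its 3 snoRNAs covered in every sample and LOC643339 had none of 3, while 1, 1 and 0 of the 2 in THAP9-AS1 were covered in shT2 and none in shNC3. The 40 named loci with no host were covered in 23.3% and 19.2% of cases.

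**Figure D2:**
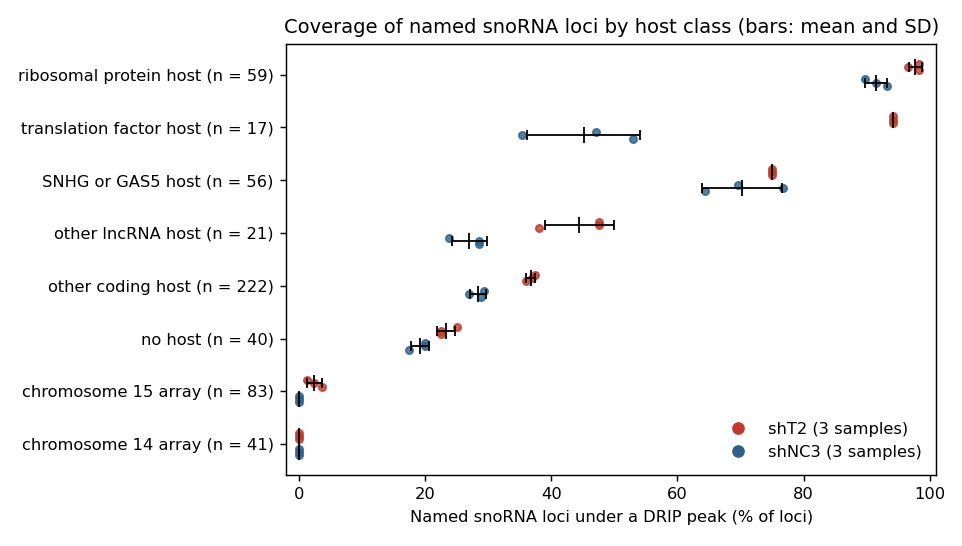
Percent of named snoRNA loci under a DRIP peak (horizontal axis) by class of host gene, 1 point per sample with bars for mean and SD, shT2 in red and shNC3 in blue. Loci in ribosomal protein genes lie at 89.8% or more in all samples. Loci in hosts classed as translation factors lie at 94.1% in shT2 and 35.3% to 52.9% in shNC3, and the imprinted arrays near 0.

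Covered length, the number of bases of a window under peaks, was compared with limma on log2(bp + 100) over all RefSeq gene windows, with Benjamini-Hochberg adjustment over the 15241 windows tested. A window was tested when it was covered in at least 3 samples and its covered length was not the same in all 6. Of the 284 covered loci, 130 were tested, 55 were covered in 1 or 2 samples, and 99 covered in at least 3 had equal length in all 6. Members called longer in shT2 numbered 36 (27.7% of the 130 tested), against 24.1% of all windows tested, and members called shorter numbered 2 (1.54%), against 16.0%. The share called longer was thus near the background and the share called shorter was below it. Over all windows tested, 40.1% were called in either direction. Among tested miRNA loci, 11.5% were called longer and 13.8% shorter, among tRNA loci 19.0% and 11.9%, among snRNA loci 20.0% and 6.67%, and among other tested windows of at most 1300 bp the shares were 13.4% and 11.4%. The median log2 difference was 0.80 over the tested snoRNA loci, 0.0851 over all tested windows, -0.0964 over miRNA loci, 0.13 over tRNA loci and 0.51 over snRNA loci. Without regard to the test, every shT2 value was above every shNC3 value at 62 of the 130 loci (all windows 32.5%), and below at 6 (all windows 22.6%).

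Of the 36 loci called longer, 21 were box H/ACA (of 46 tested), 12 were box C/D (of 66 tested) and 3 were unclassed (of 18 tested). They lay in 31 stretches and 26 hosts, and 2 had no host. The shT2 and shNC3 values did not overlap at any of these 36 loci, and 21 of them had no peak in any shNC3 sample. Those 21 met the filter of 3 covered samples through the shT2 samples alone. With no shNC3 peak, a locus past that filter cannot overlap, so non-overlap adds nothing there, and these calls describe presence in shT2. For those 21 the log2 difference depends on the 100 bp added to each value and is not a bound. SNORA100, SNORA81, SNORA63B, SNORA25 and, among the loci called shorter, SNORD95 had the same value in all 3 samples of each hairpin. Their standard errors and p-values rest on the spread of other windows. The effect of depth on peak edges, and so on covered length, was not tested.

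**Figure D3:**
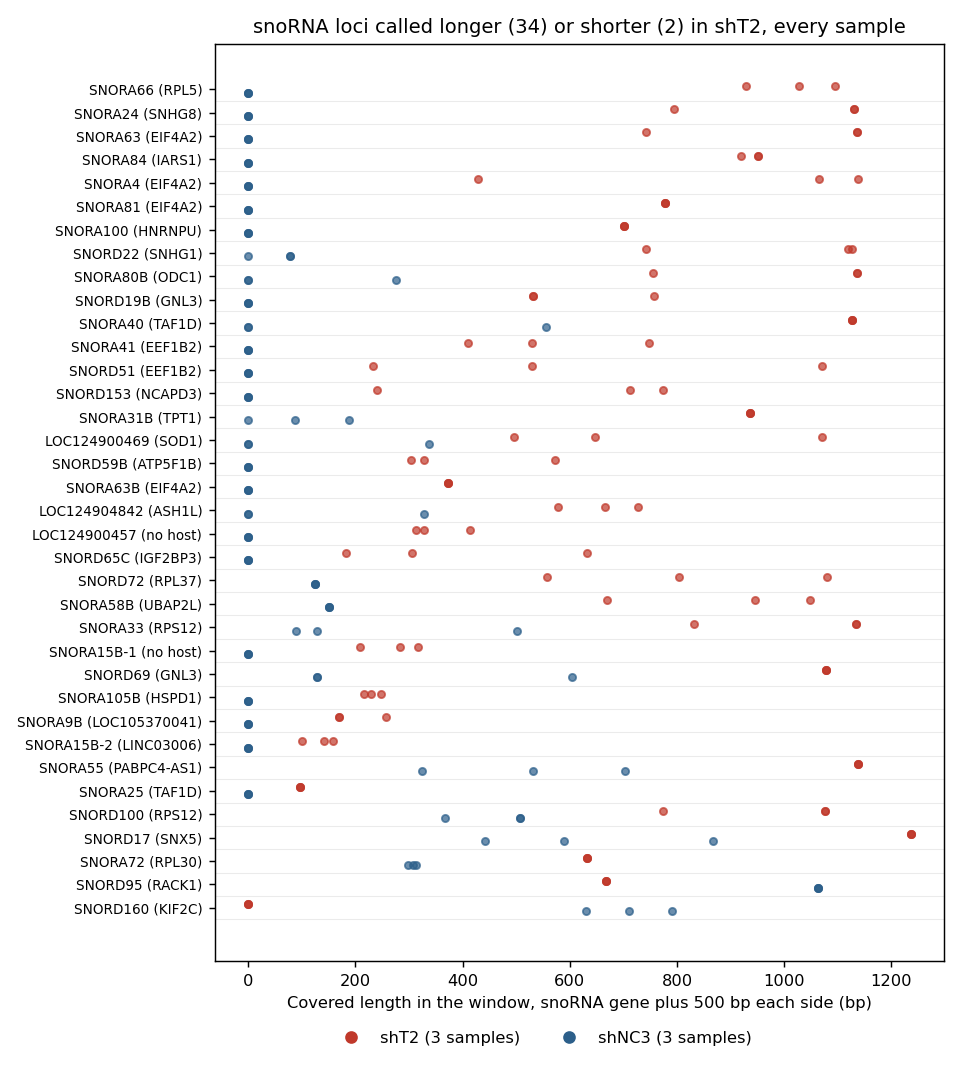
Covered length in bp (horizontal axis) of 34 snoRNA windows called longer and 2 called shorter in shT2, with the host in brackets, 1 point per sample, shT2 in red and shNC3 in blue. At 20 of the loci all 3 shNC3 points lie at 0, and SNORD160 at the bottom has the reverse pattern.

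The box H/ACA snoRNAs of EIF4A2, which encodes an RNA helicase of translation initiation, gave the most compact example. SNORA63 (window chr3:186786799-186787933) had 1135, 1135 and 743 bp under peaks in shT2 and 0 bp in each shNC3 sample. The log2 difference was 3.44 with a standard error of 0.29 (limma, adjusted p = 0.000694). SNORA81 had 777 bp in each shT2 sample, SNORA63B had 372 bp in each, and SNORA4 had 1137, 1065 and 429 bp, and all 3 had 0 bp in every shNC3 sample. The log2 differences were 3.13 for SNORA81, 2.24 for SNORA63B and 3.19 for SNORA4 (limma, adjusted p = 0.000578, 0.00155 and 0.00292). The box C/D snoRNA nearest the start of the gene, SNORD2, had its whole window of 1070 bp covered in all 6 samples. These 4 H/ACA windows overlap in part and lie under 1 peak, so they are not separate events. That peak began 2999 bp after the annotated start in all 3 shT2 samples and ran to 4941, 4600 and 3964 bp. A first peak, ending at 2177 bp, was present in all 6 samples.

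TAF1D encodes a subunit of the RNA polymerase I selectivity factor and carries 8 snoRNAs. SNORA40 (window chr11:93734610-93735736) lay wholly under a peak, 1127 bp, in all 3 shT2 samples, and had 0, 555 and 0 bp in shNC3. The log2 difference was 2.71 ± 0.81 (SE, limma, adjusted p = 0.0464). The peak ran from 5216 to 7235 bp after the annotated start in each shT2 sample, and from 5390 to 6313 bp in shNC3 replicate 2. This call passed narrowly: it was lost when any sample other than shNC3 replicate 2 was left out (adjusted p = 0.116 to 0.124). SNORA25 near the other end of the gene had 97 bp in each shT2 sample and 0 bp in shNC3 (limma adjusted p = 0.0243, and up to 0.0652 with 1 sample left out, where it passed without shNC3 replicate 2). The remaining 6 snoRNAs of TAF1D had no peak in any sample.

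GNL3 encodes nucleostemin, a nucleolar GTP-binding protein, and carries 5 snoRNAs. SNORD19B (window chr3:52690238-52691330) had 532, 532 and 758 bp in shT2 and 0 bp in shNC3, and the log2 difference was 2.81 ± 0.27 (limma SE, adjusted p = 0.0011). With no flank beyond the snoRNA gene itself this call was lost (log2 difference 0.58, adjusted p = 0.0936). SNORD69 had 1077 bp in each shT2 sample and 605, 129 and 128 bp in shNC3 (log2 difference 1.82, limma adjusted p = 0.0389). Leaving out any sample other than shNC3 replicate 1 ended that call (adjusted p up to 0.104). SNORD136 had no peak in any sample. Here too the shT2 peaks shared their edges: 1 began at 3882 bp after the start and another ran from 6096 to 9621 bp in all 3 samples.

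**Figure D4:**
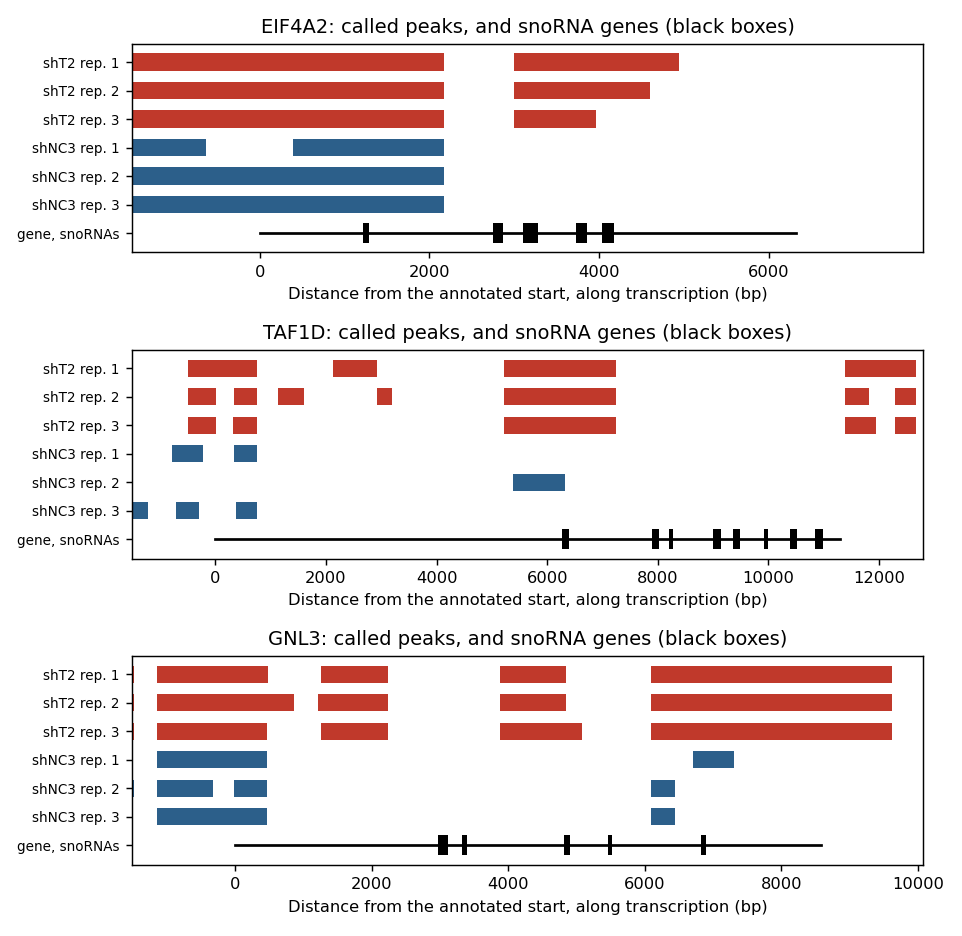
Called peaks (bars, shT2 in red, shNC3 in blue, 1 row per sample) and snoRNA genes (black boxes) along EIF4A2, TAF1D and GNL3, by distance in bp from the annotated start in the direction of transcription. In EIF4A2 a second peak from 2999 bp on is present in the 3 shT2 rows and absent from the 3 shNC3 rows, and peak edges coincide between samples.

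Peak edges need not bound an R-loop here. The nucleic acids were cut with BsrGI, EcoRI, HindIII, SspI and XbaI before the pulldown, and the places these enzymes cut were not mapped. Whether the shared peak edges are cut sites was not tested.

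The other named loci had mostly empty shNC3 windows. SNORA66, in the ribosomal protein gene RPL5 (window chr1:92840219-92841351), had 1028, 928 and 1094 bp in shT2 and 0 bp in shNC3, and the log2 difference was 3.48 ± 0.25 (limma SE, adjusted p = 0.000477). SNORD21, the other snoRNA of RPL5, had 154 bp in all 6 samples. SNORA24 of SNHG8 (window chr4:118278690-118279820) had 1131, 1131 and 795 bp in shT2 and 0 bp in shNC3, at a log2 difference of 3.47 ± 0.27 (limma SE, adjusted p = 0.000621). It lies 428 bp after the start printed above, and SNHG8 as a whole had no peak in any shNC3 sample. In shT2 replicate 3 the peak lay in the flank of SNORA24 alone, and with no flank the locus could not be tested.

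SNORA84 of IARS1, which encodes isoleucyl-tRNA synthetase, had 951, 951 and 920 bp in shT2 (window chr9:92291961-92293093) and 0 bp in shNC3. SNORA100 of HNRNPU had 702 bp in each shT2 sample and 0 bp in each shNC3 sample. Their log2 differences were 3.38 and 3.00 (limma, adjusted p = 0.000484 and 0.000644). HNRNPU encodes a nuclear RNA-binding scaffold protein, and SNORA100 lies 10326 bp after its start. With peaks of at least 5-fold enrichment, SNORA66, SNORA84, SNORD19B and the 4 H/ACA snoRNAs of EIF4A2 were covered in fewer than 3 samples and could not be tested.

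At 2 further named loci the shNC3 peaks touched the edge of the window. SNORD22 of SNHG1 had 1126, 743 and 1119 bp in shT2 and 78, 78 and 0 bp in shNC3 (log2 difference 2.88, limma adjusted p = 0.00271). SNORA80B of ODC1, the gene of ornithine decarboxylase, had 1136, 1136 and 756 bp in shT2 and 276, 0 and 0 bp in shNC3. Its log2 difference was 2.81 ± 0.61 (SE, limma, adjusted p = 0.0176), and the call was lost on leaving out shT2 replicate 1 or 2 or shNC3 replicate 2 or 3 (adjusted p = 0.0519 to 0.0619). At both loci the shT2 peaks shared 1 edge with the shNC3 peaks that touched the window, and reached farther across it.

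The snoRNAs of SNHG1 differed along the gene. SNORD25, SNORD26, SNORD28, SNORD29 and SNORD30, together with a predicted locus, were covered in all 6 samples. SNORD31 had 1068 bp in each shT2 sample and 436, 436 and 0 bp in shNC3, and did not pass the test. SNORD22, the last of the 9 along the transcript at 2850 bp from the start, was the 1 called longer. SNHG1 as a whole had 3557, 3545 and 3889 bp in shT2 and 1858, 1636 and 1895 bp in shNC3 (log2 difference 0.99, limma adjusted p = 0.00134).

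A similar picture was seen in GAS5, without a call. SNORD74 and SNORD75, nearest the start, were wholly covered in all 6 samples. SNORD78 had 1065 bp in each shT2 sample and 745, 704 and 0 bp in shNC3, and SNORD79 had 821 bp against 501, 460 and 0 bp. The shNC3 samples lay below the shT2 samples at both loci, but neither passed the test, and shNC3 replicate 3 stood apart with 0 bp.

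Box C/D and H/ACA snoRNAs were called together in 2 hosts. EEF1B2 encodes a subunit of the elongation factor complex that reloads eEF1A, and its SNORA41 had 747, 410 and 530 bp in shT2 and its SNORD51 had 1070, 233 and 530 bp. Both had 0 bp in every shNC3 sample (log2 differences 2.70 and 2.65, limma adjusted p = 0.00174 and 0.0114). In RPS12, SNORA33 had 831, 1133 and 1133 bp in shT2 and 501, 129 and 90 bp in shNC3, and SNORD100 had 774, 1076 and 1076 bp against 507, 367 and 507 bp. Their log2 differences were 1.92 and 0.94 (limma, adjusted p = 0.0324 and 0.0357). Both calls were fragile. SNORA33 passed without shNC3 replicate 1 and in no other fit with 1 sample left out (adjusted p up to 0.0954), and SNORD100 passed without shT2 replicate 1 and in no other (up to 0.1). The EEF1B2 calls held in all 6 such fits. With peaks of at least 5-fold enrichment, though, both EEF1B2 loci were covered in shT2 replicate 1 alone and could not be tested. In shT2 replicate 2 the peak reached the flank of SNORD51 and not the snoRNA gene.

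The 2 loci called shorter differed in kind. SNORD160 of KIF2C, the gene of a microtubule-depolymerizing kinesin (window chr1:44761535-44762607), had 0 bp in all shT2 samples and 710, 791 and 630 bp in shNC3. Its log2 difference was -3.01 ± 0.25 (SE, limma, adjusted p = 0.000699). With 2000 bp of flank the difference was -0.50 and did not pass (adjusted p = 0.12). SNORD95 of RACK1 (window chr5:181242814-181243876), whose protein is a scaffold on the small ribosomal subunit, had 668 bp in each shT2 sample and 1063 bp, the whole window, in each shNC3 sample. Its log2 difference was -0.60 ± 0.18 (SE, limma, adjusted p = 0.0444), and it was lost on leaving out any 1 of the 6 samples (adjusted p = 0.0763 to 0.0817). The SNORD95 gene itself lay under the peak in all 6 samples, so the difference lay in the flank on the side of the RACK1 start. With no flank SNORD95 could not be tested.

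At RACK1 a broad peak was present in all samples and reached the start printed above in shNC3. It ended at chr5:181243481 in each shT2 sample and at chr5:181245315 in each shNC3 sample. The start of RACK1 therefore lay under the peak in the 3 shNC3 samples (300 of 300 bp around the start) and outside it in the 3 shT2 samples (0 bp). By the authors' fold enrichment, the peak stood at the percentile 99.8 or 99.9 of each list, and its width was 11098 to 11366 bp against 12932 bp. SNORD96A, the other snoRNA of RACK1, was wholly covered in all 6.

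The large imprinted arrays were almost free of peaks. SNORD115 (48 copies) and SNORD116 (30 copies) lie in the paternally expressed region of chromosome 15 that is deleted in Prader-Willi syndrome, and SNORD113 (9 copies) and SNORD114 (31 copies) lie in the maternally expressed region of chromosome 14. No copy of SNORD113, SNORD114 or SNORD115 was covered in any sample. SNORD116 had 1, 2 and 3 copies covered in the shT2 samples and none in shNC3. These were SNORD116-4, SNORD116-5, SNORD116-6 and SNORD116-7, none of them in all 3 shT2 samples. The copies are near identical, so reads from 1 may have been placed at another or discarded, and their absence from the lists does not show absence of hybrids.

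The genes of the long transcripts that carry the arrays differed in covered length, in opposite directions. SNHG14, the host of most copies on chromosome 15, had 5997, 10597 and 8258 bp in shT2 and 1316, 0 and 309 bp in shNC3 (log2 difference 4.40, limma adjusted p = 0.0187). Leaving out any 1 shT2 sample or shNC3 replicate 3 ended the call for SNHG14 (adjusted p up to 0.0656). MEG8, on chromosome 14, had 0 bp in all shT2 samples and 5684, 6146 and 5321 bp in shNC3 (log2 difference -5.86, limma adjusted p = 0.000143). No snoRNA window within MEG8 was covered in any sample, so this difference lay elsewhere in the gene.

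The snoRNAs that have their own promoters showed no difference that passed the test. SNORD118 (U8), which acts in the maturation of large-subunit ribosomal RNA, had 371, 0 and 797 bp in shT2 and 232, 0 and 557 bp in shNC3. SNORD3 (U3), which acts in the cleavage of the ribosomal RNA precursor, has several near-identical copies on chromosome 17, and reads may be shared among them. SNORD3B-2 had 559, 526 and 744 bp in shT2 and 334, 846 and 463 bp in shNC3, with overlapping groups. SNORD3D had 319, 432 and 341 bp against 258, 151 and 256 bp, and its groups did not overlap, but it did not pass (log2 difference 0.54, limma adjusted p = 0.2). SNORD3A, SNORD3B-1, SNORD3C and SNORD13, which guides acetylation of ribosomal RNA, were covered in no sample.

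With bases pooled over hosts, snoRNA windows were covered more than the rest of the genes that carry them. The pool held 936065 bp of windows and 89503331 bp of other bases, so long hosts weigh most in the second share. The part of host length and of distance from the start in this gap was not tested. Over all loci with a host, 18.1% ± 0.21 (SD, n = 3) of window bases lay under peaks in shT2, against 2.88% ± 0.10 of the other bases of the same hosts. In shNC3 these shares were 14.5% ± 0.11 and 2.22% ± 0.14 (SD, n = 3). The gap was 15.2 points in shT2 and 12.3 in shNC3, and differed by 2.89 points between hairpins (exact permutation p = 0.1). In short hosts the rest of the gene was covered as well: for ribosomal protein hosts, 90.1% of window bases and 86.0% of other bases lay under peaks in shT2, and 78.8% and 71.8% in shNC3. For SNHG and GAS5 hosts the values were 58.0% and 17.8% in shT2, and 49.0% and 17.9% in shNC3. In translation factor hosts, the windows had 68.0% against 59.6% of the rest in shT2, and 43.5% against 48.2% in shNC3.

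The host itself was usually called in the same direction. Of the 26 hosts of loci called longer, 20 were called longer as whole genes and none shorter. Over all windows tested, 24.1% were called longer and 16.0% shorter. A longer host and its longer snoRNA window share bases, so these are not independent measurements. LINC03006 was an exception among the hosts: its SNORA15B-2 was called longer, at an adjusted p of 0.0151 (limma) that was 0.0628 with a replicate block, while the gene had 14855 to 16626 bp in shT2 and 15481 to 18103 bp in shNC3. SNORA15B-1 and SNORA15B-2 are copies of 1 snoRNA, so reads may be shared between them.

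Coverage was lower farther from the start of the host, over the 304 named loci outside the arrays whose host has an annotated start in the promoter table. Of 21 loci under 1 kb from the start, 90.5% were covered in shT2 and 81.0% ± 8.2 (SD, n = 3) in shNC3. Of 118 loci at 10 kb or more, 22.6% ± 1.3 and 16.7% ± 1.3 (SD, n = 3) were covered. The gap between hairpins was 15.5 points from 2 to 4 kb, 10.9 points from 4 to 10 kb and 5.93 points beyond. Loci covered in all 6 samples lay at a median of 2662.5 bp from the start (n = 120), and those covered in none at 33622.5 bp (n = 114). For the loci called longer the median was 4036 bp (n = 27). Distances were measured from the end of the gene span on the strand of the host, which differs from the start in the promoter table for 30 of the 304 loci, those of SNHG12 among them. These are descriptions across loci, which share hosts and peaks.

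**Figure D5:**
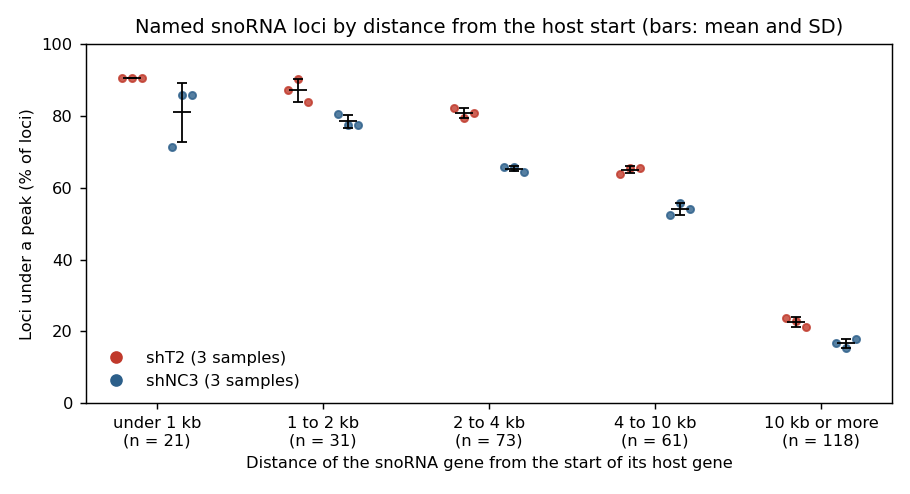
Percent of named snoRNA loci under a DRIP peak (vertical axis) by distance of the snoRNA gene from the annotated start of its host, 1 point per sample with bars for mean and SD, shT2 in red and shNC3 in blue. Coverage goes from 90.5% and 81.0% under 1 kb to 22.6% and 16.7% at 10 kb or more, with the widest gap from 2 to 4 kb.

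A wide or strong peak is more likely to reach a window in every list, so the peaks over the 168 loci covered in all 6 samples are given as a description. For these loci, the median fold enrichment of the best overlapping peak, as the authors' peak caller gave it, was 22.1 to 23.1 in the shT2 lists and 15.9 to 17.6 in the shNC3 lists. Within their own lists these stood at a median percentile of 98.0 to 98.1 and 94.3 to 95.5. The median width of these peaks was 5752 to 6728 bp in shT2 and 4926 to 5097 bp in shNC3, where the median of all peaks was 622 to 678 bp and 622 to 659 bp. A fold cannot be set between the hairpins, since their backgrounds differ.

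Host promoters were searched for a TOP-like start, defined as C at the annotated start followed by at least 4 more of C or T, on the strand of the gene. The promoter table held 490 of the 627 hosts. A TOP-like start was found in 4.05% of all 27195 promoters of the table and in 17.3% of the 202 promoters of hosts of named snoRNAs. Where at least 1 named locus was covered in all 6 samples the share was 32.8% of 64 promoters, and where none was covered it was 8.7% of 92. A start was counted as covered when a peak overlapped the 300 bases around it by 1 bp or more. By that rule the start was covered in all 6 samples for 68.8% and 12.0% of these hosts, against 13.4% of all promoters. Of the 20 hosts of loci called longer that are in the table, 9 had the start covered in all 6 samples, 1 (SNHG8) in all shT2 and no shNC3 samples, and 5 in none. A match describes the letters at 1 annotated start, and hosts of 1 class share such letters.

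Genes of the snoRNP proteins, which bind, modify with and process snoRNAs, were measured with the same window rule. Of 31 genes, 27 were tested, 11 were called longer, 2 shorter and 14 did not pass, with a median log2 difference of 0.48. Over all windows tested, 24.1% were called longer and 16.0% shorter, and the median was 0.0851. FBL, which encodes the methyltransferase fibrillarin, was called shorter, with 3296, 3454 and 2389 bp in shT2 and 6081, 6736 and 6549 bp in shNC3 (log2 difference -1.08, limma adjusted p = 0.0042). NOP58, a core protein of the same particles, was called longer, with 11506, 12935 and 11981 bp against 7411, 6481 and 4554 bp (log2 difference 1.00, adjusted p = 0.0103). NOP56 had 5806 to 6089 bp in shT2 and 5788 to 6762 bp in shNC3, with overlapping groups. NOP58 is also a host, and none of its 3 snoRNA loci with a peak, SNORD11, SNORD11B and SNORD70, passed the test.

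On the H/ACA side, DKC1, the gene of the pseudouridine synthase dyskerin, was called longer with 7962, 7774 and 6359 bp in shT2 and 3446, 4397 and 4408 bp in shNC3 (log2 difference 0.84, limma adjusted p = 0.00719). NHP2, NOP10 and GAR1, the other core proteins, did not pass. Among assembly factors SHQ1, RUVBL1 and ZNHIT3 were called longer, with log2 differences of 0.52, 0.37 and 0.48. None of these 3 calls was held in all fits with 1 sample left out: SHQ1 passed in none of the 6, RUVBL1 passed without shNC3 replicate 1 alone, and ZNHIT3 without shNC3 replicate 2 alone. After scaling to total covered length none of the 3 passed (adjusted p = 0.0726, 0.122 and 0.0592). Among nucleolar and Cajal body proteins NOLC1 (0.32) and TCOF1 (0.25) were called longer, while WRAP53, which brings H/ACA RNAs to Cajal bodies, was called shorter (log2 difference -0.49, limma adjusted p = 0.0332). NOLC1 and TCOF1 did not pass after that scaling (adjusted p = 0.121 and 0.0923), and NOLC1 was also lost without any 1 shT2 sample or shNC3 replicate 1. TCOF1 was lost without shT2 replicate 3 (adjusted p = 0.0518), and WRAP53 without shT2 replicate 1 or 2 or shNC3 replicate 1 or 3 (up to 0.102). Of the processing enzymes, TGS1, DIS3, XRN2 and PARN were called longer, with log2 differences of 3.91, 3.66, 1.75 and 1.36. These 4 calls, and those of FBL, NOP58 and DKC1, held in all 6 fits with 1 sample left out.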

How the data were processed

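DRIP-seq was run on 3 shT2 and 3 shNC3 samples of SH-SY5Y, with 1 deposited peak list per sample. Reads were processed with Bowtie2 2.4.4, SAMtools and MACS2 2.2.6 on hg38, per the submitters' processing notes. Which control MACS2 was given is not stated in these sources. Each deposited list gives the fold enrichment at the summit (a linear ratio) and the −log10 p-value and −log10 q-value, as the authors' peak caller wrote them, and holds peaks up to a q-value of 0.01. No counts are in the lists, so covered length is the quantity compared, not signal strength. The mapping of repeated sequences is not stated.

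Gene windows came from the RefSeq table of GRCh38.p14, gene span plus 500 bp each side. The host is the shortest protein-coding or lncRNA gene that holds the snoRNA, and 66 loci lay in more than 1. The snoRNA strand was not used here. A linear model without covariates was fitted to log2(covered bp + 100) of 15241 windows (limma 3.58.1, R 4.3.3, moderated with a trend and robustly), with p-values adjusted by Benjamini-Hochberg and calls made under 0.05. Values were not scaled to total covered length, because a short window wholly under a peak in each sample would then differ by construction. Single values were compared with two-sided exact permutation tests. Tables and figures used Python 3.11.15. The fit was tested on simulated data.

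Loci named were the 10 with the largest log2 difference per direction past the threshold and without overlap, 1 per host (1 of them is not reported here), the independently transcribed snoRNAs, up to 4 hosts per class with the most snoRNAs, the imprinted arrays, and up to 4 snoRNP genes per role past the threshold. RPL7A and RPS12 and their loci, and the printed starts, were chosen after their values were seen. The members, lists and rules were chosen with earlier results of these data known. Samples with the same replicate number did not deviate together (r = -0.0275, -0.0277 and -0.00362 over 15241 windows), so the main fit did not pair them. Whether such samples shared an infection or a batch was not tested. Alternatives were the flank, pseudocount, scaling, peak strength, depth, filter, overlap, replicate block and leaving out each sample.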

Additional observations from a re-analysis of the deposited data

How the results depend on the processing

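The difference in the share of snoRNA loci covered, 3.76 points as reported, kept its direction in each alternative run. It was 3.46 with no flank, 4.15 with 2000 bp of flank, 3.12 with peaks of at least 5-fold enrichment, 4.12 with q of at most 1e-05, 3.32 at equal depth, 3.48 when at least 50% of the window had to be covered, and 3.65 to 3.82 with 1 sample left out. Loci covered in 3 of 3 shT2 and 0 of 3 shNC3 samples numbered 9 with 5-fold peaks and 24 to 30 with 1 sample left out. Shares over all gene windows for this pattern and the reverse were not worked out in the settings listed, so these counts lack a background. The reverse pattern held 4 loci with 2000 bp of flank, 2 with 5-fold peaks, 2 with q of at most 1e-05, 3 with 50% of the window, and 1 to 5 with 1 sample left out (5 without shNC3 replicate 2, 3 without shNC3 replicate 1, and 2 without shT2 replicate 1, shT2 replicate 3 or shNC3 replicate 3). Loci called longer numbered 18 of 71 tested with no flank (14 of the 36, of which 21 could be tested), 90 of 254 with 2000 bp (34 of the 36), 19 of 102 with 5-fold peaks (10 of the 36, of which 15 could be tested), and 25 to 33 with 1 sample left out, where 25 to 30 of the 36 were called again. The share of all tested windows called longer was 24.0% with no flank, 25.0% with 2000 bp and 17.4% with 5-fold peaks. With no flank and with 5-fold peaks the snoRNA share called longer was thus near the background. The shares of all tested windows called shorter in the same settings were 15.7%, 16.9%, 15.4% and 11.4% to 14.9%. Loci called shorter numbered 4 with a pseudocount of 500 bp, 1 with no flank, 11 with 2000 bp, 4 with 5-fold peaks, 4 with q of at most 1e-05, 1 with windows covered in at least 1 sample, and 1 to 2 with 1 sample left out (1 without shNC3 replicate 2 or 3). Of all tested windows, 16.8% were called shorter with that pseudocount, 14.3% with that q and 12.7% with windows covered in at least 1 sample. With the replicate number as a block, 25 loci were called longer, all among the 36, and 1 shorter, with SNORA40 and SNORD95 lost (adjusted p = 0.074 and 0.159). Of all tested windows, 18.5% were called longer and 11.4% shorter with the block. Also lost with the block were SNORA25 (0.0896), SNORD69 (0.0751), SNORA33 (0.088), SNORD100 (0.118), SNORA15B-2 (0.0628), SNHG14 (0.0521), SHQ1 (0.139), RUVBL1 (0.0539), ZNHIT3 (0.102), NOLC1 (0.0549), TCOF1 (0.0689) and WRAP53 (0.0676). The gap between windows and the rest of their hosts differed between hairpins by 3.62 points with no flank, 2.51 with 2000 bp, 3.02 with q of at most 1e-05, and 2.83 to 2.94 with 1 sample left out. Scaling to total covered length turned the split over all windows from 24.1% longer and 16.0% shorter to 19.1% and 21.8%, and left 31 snoRNA loci longer and 2 shorter of 229 tested. No log2 difference of the 36 loci turned its sign in the alternatives that could test it. Every shT2 value was above every shNC3 value at these loci. The pseudocount, the filter, the block and leaving out a sample therefore could not turn a sign. The causes of these shifts were not tested, beyond the number of windows each alternative left to test. Peak lists hold no reads, so signal within peaks and hybrids below the calling threshold could not be compared. Near-identical snoRNA copies limit what an empty window shows.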
